A study of Rattus norvegicus with 36 samples.

Results

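The circadian clock genes described here are Nr1d1, Nr1d2, Dbp, Tef, Per1, Per2, Per3, Bmal1 (also written Arntl), Cry1 and Npas2, chosen by gene symbol. They are 10 of the 14217 genes named on the Affymetrix rat array used, and they are read by 16 probe sets, all of which passed the filter on dim values. Expression was measured in mammary glands of the rat strains F344 and Cop. Every rat was treated at 55 days of age, either with the saline vehicle (the controls) or with N-nitrosomethylurea (NMU), an alkylating carcinogen that induces mammary tumours in rats, to which F344 is susceptible and Cop resistant. Glands were taken 6 h, 1 d or 30 d after treatment, which gives 12 groups of 3 arrays: F344 control, F344 NMU, Cop control and Cop NMU at each time. The replicates are labelled biological and are not described further, so the p-values measure the spread between these samples, pooled over all 12 groups. Neither the NMU dose nor the clock time of collection is stated in the sources used here. Differences between times after treatment, and between groups that may have been collected at different hours, therefore cannot be told apart from differences in clock time. Glands taken at 30 d also come from older rats, so differences between 1 d and 30 d cannot be told apart from differences in age.

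The clock is a transcription loop that runs in nearly every cell, the mammary gland included. BMAL1 pairs with CLOCK or its relative NPAS2 and binds E-box sequences in the genes for the PER and CRY proteins, the nuclear receptors NR1D1 and NR1D2 (REV-ERB alpha and beta) and the transcription factor DBP. PER and CRY proteins block that activity, and NR1D1 and NR1D2 repress Bmal1, Npas2 and Cry1 through ROR elements. DBP and TEF, members of the PAR bZIP family, drive genes with a D-box, among them Per genes. In a gland sampled around the clock, Nr1d1 and Dbp run high when Bmal1 and Npas2 run low.

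On build GRCr8, Nr1d1 lies at chr10:84224599-84231812, Nr1d2 at chr15:9955034-9981329, Dbp at chr1:105312256-105317205, Tef at chr7:115197180-115221930 and Per1 at chr10:54299002-54313804. Per2 lies at chr9:99454828-99497069, Per3 at chr5:166740914-166778243, Bmal1 at chr1:176766222-176864741, Cry1 at chr7:20417526-20481791 and Npas2 at chr9:48959225-49138036, and all are protein-coding. The 3 kinds of element named above were searched for in the RefSeq promoters of the members (build GRCr8, from 250 bases before to 50 after the annotated start), on both strands. Windows were held for 9 of the 10 members, and Nr1d1 had 2. Cry1 had none in the table. The E-box CACGTG lay in 6.42% of all 33469 promoter windows of this length and in windows of 2 members, Nr1d1 and Tef. The E-box variant CACGTT lay in 4.83% of all windows and in those of Nr1d1 and Per2. The D-box, searched as TTATGTAA or TTACGTAA, lay in 1.01% of all windows and in that of Per2. The ROR element lay in 0.356% of all windows and in that of Bmal1, 20 bases before the start used for the window. That start lies within the annotated gene, so the element is downstream of the Bmal1 gene start given above. No matches in the members overlapped each other, and 5 members (Nr1d2, Dbp, Per1, Per3 and Npas2) had no match in their window. The windows of Per1 (chr10:54304126-54304425), Per3 (chr5:166777751-166778050) and Npas2 (chr9:48959315-48959614) lie within the annotated genes. So does the Tef window (chr7:115206577-115206876), which holds the Tef E-box. The sequence before these genes was therefore not searched. The stretches around the matches are shown as the sequence context of elements through which the loop is known to act, and no result below was sorted by them. Each reads 5′ to 3′ along the gene's strand with the element in capitals. At most 30 bases are shown where the stretch lies within the annotated gene, which was the case for the second Nr1d1 window, Tef, Bmal1 and the Per2 E-box variant.
Nr1d1, E-box variant on the other strand, chr10:84231921-84232046 (minus strand): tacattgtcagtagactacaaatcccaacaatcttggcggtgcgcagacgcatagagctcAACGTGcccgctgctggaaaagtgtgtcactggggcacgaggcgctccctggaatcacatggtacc
Nr1d1, E-box of the second start, chr10:84229628-84229657 (minus strand): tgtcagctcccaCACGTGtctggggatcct
Tef, E-box, chr7:115206617-115206646 (plus strand): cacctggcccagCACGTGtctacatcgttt
Per2, E-box variant, chr9:99497038-99497067 (minus strand): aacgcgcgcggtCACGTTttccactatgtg
Per2, D-box, chr9:99497118-99497243 (minus strand): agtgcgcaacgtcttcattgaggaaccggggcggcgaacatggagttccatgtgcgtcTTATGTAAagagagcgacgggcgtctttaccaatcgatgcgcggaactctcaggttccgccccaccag
Bmal1, ROR element, chr1:176766299-176766327 (plus strand): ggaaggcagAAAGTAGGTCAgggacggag
A match describes letters in a window and says nothing of whether a factor was bound there.

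Values below are the deposited log2 expression values, so a difference of 1 is a doubling. A change was called at an adjusted p under 0.05 from limma, with Benjamini-Hochberg adjustment over all 20749 probe sets tested in a comparison. The share of all probe sets at an unadjusted p under 0.05 was not computed. Counts of members at that looser threshold therefore cannot be set against the shares called. The tissue label fits its markers: the adipocyte hormone gene Adipoq stood on average at the 99th percentile of its array, and the epithelial genes Krt8, Krt18 and Epcam averaged 9.72, 9.94 and 10.5. Of the brown fat list, Ucp1 averaged 4.15 (percentile 24.7 of its array), Elovl3 3.20 (3.46) and Cox7a1 4.94 (38.9), while Cidea averaged 9.12 (90.3) and Adrb3 7.89 (78.4). Skeletal muscle markers were also bright on average, at percentiles from 52.4 (Myh2) to 96.4 (Myh1), and Acta1 ranged from 4.29 to 13.8 over the arrays. Array medians lay between 5.66 and 5.77. The most alike replicate pair of the series was replicates 1 and 2 of the F344 controls at 1 d, with a root mean square log2 difference of 0.163, against 0.232 for the next pair. With them averaged as 1 array, Per3 lost its call between the strains at 1 d (adjusted p = 0.106) and every other member call in the comparisons with this group held. Each gland is a mixture of cells, so fewer cells of a type and less RNA per cell cannot be told apart.

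The members ranged widely over the 12 groups. The group means of Nr1d1 spanned 3.30, a 9.85-fold range from Cop controls at 6 h (5.41 ± 0.60, SD, n = 3) up to Cop NMU glands at 30 d (8.71 ± 0.18, n = 3). Those of Dbp spanned 2.38, those of the repressor gene Cry1 2.14, and those of Npas2, Per2, Tef, Bmal1, Per3 and Per1 between 1.24 and 1.85. Nr1d2 moved least, with a span of 0.89. Cop controls at 6 h were the extreme group for several members, lowest in Nr1d1, Nr1d2, Dbp, Per1 and Per3 and highest in Bmal1 and Cry1. Many neighbours in the order of group means lay within their spread: of 11 neighbouring pairs, 4 in Nr1d1, 3 in Per2 and Per3, 2 in Dbp, Bmal1 and Cry1 and 1 in Nr1d2 were further apart than the larger SD of the pair. None were in Tef, Per1 or Npas2.

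**Figure D1:**
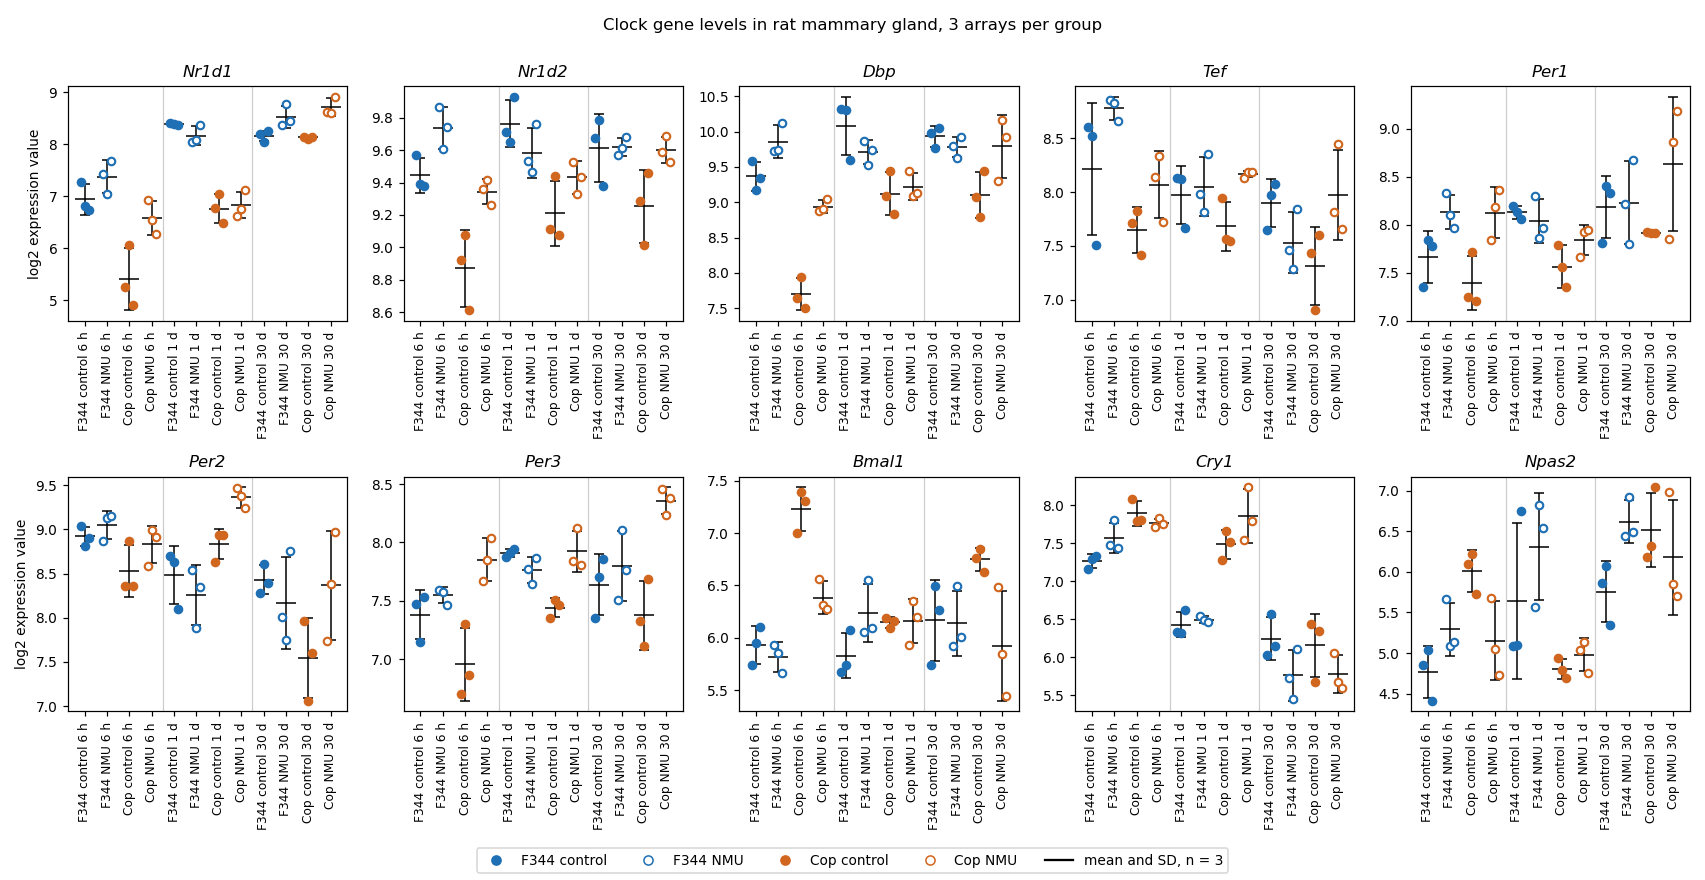
Deposited log2 expression value of each of the 10 clock genes (y axis, a separate scale per gene) in the 12 groups (x axis), with 1 point per array and bars for the mean and SD of the 3 arrays. Filled points are controls, open points NMU glands, blue F344 and orange Cop. Cop controls at 6 h stand lowest in Nr1d1 (mean 5.41) and Dbp (mean 7.70) and highest in Bmal1 (mean 7.23).

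The first comparison asks how the strains differ without carcinogen. At 6 h, the nuclear receptor genes Nr1d1 and Nr1d2 and the output gene Dbp were lower in Cop controls than in F344 controls, and Bmal1, Npas2 and Cry1 were higher. In all, 6 of the 10 members were called, 3 lower and 3 higher, beside 19.0% of all probe sets tested. The arrays of the 2 strains did not overlap for these 6, beside 40.7% of all probe sets. The median difference of the members was -0.41, against 0.07 for all probe sets.

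Nr1d1 read 7.27, 6.81 and 6.73 on the F344 control arrays at 6 h and 5.25, 6.07 and 4.90 on the Cop control arrays. Every Cop array was below every F344 array, and Nr1d1 was 2.89-fold lower in Cop (log2 difference -1.53, SE 0.214, limma adjusted p = 1.06e-05). Nr1d2, the closely related receptor, read 9.57, 9.39 and 9.38 in F344 and 8.92, 9.08 and 8.61 in Cop, and was 1.49-fold lower (-0.57, SE 0.128, adjusted p = 0.00235). Dbp read 9.58, 9.17 and 9.35 in F344 and 7.65, 7.94 and 7.50 in Cop. It differed most of the members at this time, 3.18-fold lower in Cop (-1.67, SE 0.202, adjusted p = 9.76e-07).

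On the activator side, Bmal1 read 5.73, 5.95 and 6.10 in F344 controls at 6 h and 7.00, 7.39 and 7.30 in Cop controls. It was 2.47-fold higher in Cop (1.30, SE 0.208, adjusted p = 6.58e-05), with all Cop arrays above all F344 arrays. Its partner gene Npas2 read 4.86, 5.04 and 4.42 in F344 and 6.09, 6.21 and 5.72 in Cop (1.24, SE 0.374, adjusted p = 0.0204). Cry1 read 7.16, 7.30 and 7.34 in F344 and 8.09, 7.80 and 7.81 in Cop (0.63, SE 0.192, adjusted p = 0.0202). The call for Npas2 was lost without F344 control replicate 3 (adjusted p = 0.103) or Cop control replicate 1 or 2 (0.0627 and 0.0861). That for Cry1 was lost without F344 control replicate 1 (0.0711) or Cop control replicate 1 (0.0969).

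Tef and the Per genes were not called at 6 h on the probe sets used. Tef read 8.61, 8.52 and 7.50 in F344 and 7.71, 7.83 and 7.41 in Cop, and F344 replicate 3 stood below the other two F344 arrays. Its difference was called without that array (-0.91, adjusted p = 0.00973). Both other Tef probe sets were called lower in Cop, by -1.07 and -0.64 on the log2 scale (adjusted p = 0.000701 and 0.0372), as was the dimmer Per3 probe set (-0.56, adjusted p = 0.0146).

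At 1 d, 5 of the 10 members were called, beside 15.2% of all probe sets, and the arrays of 8 members did not overlap between strains, beside 34.0%. The median difference was -0.51, against 0.02 for all probe sets. Nr1d1 read 8.41, 8.39 and 8.37 in F344 controls and 6.77, 7.03 and 6.48 in Cop controls, a 3.09-fold lower level in Cop (-1.63, SE 0.214, adjusted p = 4.68e-06). The F344 arrays were nearly equal and all lay well above the Cop arrays. Nr1d2 was 1.47-fold lower (-0.55, adjusted p = 0.00319), with no call on its other probe sets (-0.42 and -0.34, adjusted p = 0.077 and 0.383). Dbp was 1.95-fold lower (-0.96, adjusted p = 0.00139), with F344 values of 10.32, 10.31 and 9.61 against Cop values of 9.08, 9.44 and 8.84. Cry1 was 2.08-fold higher in Cop (1.06, SE 0.192, adjusted p = 0.000332), from 6.34, 6.32 and 6.62 in F344 against 7.28, 7.66 and 7.52 in Cop. Per3, a period gene that is dispensable for the loop itself, was lower in Cop (-0.47, SE 0.162, adjusted p = 0.049). That call was lost when any 1 of the 6 arrays was left out (adjusted p from 0.0748 to 0.139), and the second Per3 probe set gave -0.11 (adjusted p = 0.734).

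Bmal1 was no longer called at 1 d, with 5.67, 5.74 and 6.08 in F344 and 6.19, 6.09 and 6.16 in Cop. The highest F344 array and the lowest Cop array lay next to each other. At 30 d, Dbp alone was called, beside 2.83% of all probe sets, and 5 members did not overlap between strains, beside 12.9%. Dbp read 9.98, 9.77 and 10.05 in F344 controls and 9.08, 8.79 and 9.44 in Cop controls (1.78-fold lower, -0.83, SE 0.202, adjusted p = 0.0165). Its call was lost without F344 control replicate 1 (0.08) or 3 (0.0807) and without Cop control replicate 1 (0.0615) or 2 (0.133). Nr1d1 read 8.19, 8.05 and 8.24 in F344 and 8.14, 8.10 and 8.15 in Cop by then, overlapping values with a difference of -0.03 (95% interval -0.47 to 0.41).

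Skeletal muscle markers moved with these strain comparisons. The muscle score, the mean deviation over 11 measured marker genes, lay between 1.87 and 2.73 in F344 controls at 6 h and between -3.52 and -0.97 in Cop controls, and 5 of 11 markers were called lower in Cop at both 6 h and 1 d. With the score as a covariate, Nr1d1 differed at 6 h by -1.55 (adjusted p = 0.000199), Dbp by -1.64 (adjusted p = 4.27e-05) and Bmal1 by 1.32 (adjusted p = 0.000953). The calls for Cry1 (adjusted p = 0.0858) and Npas2 (adjusted p = 0.0885) at 6 h were lost with it. Both were also lost with the T and NK score as a covariate (Cry1 0.50, adjusted p = 0.0673, and Npas2 0.99, adjusted p = 0.0668).

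Markers of other cell types moved as well. At 6 h, 5 of 7 fibroblast markers were called lower in Cop controls, and 3 of 6 basal epithelial, 2 of 8 luminal epithelial and 3 of 5 endothelial markers higher. At 1 d, 7 of 7 adipocyte markers were called lower in Cop and 2 of 6 basal epithelial markers higher. Their part in the strain differences was not tested.

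The times after treatment were then compared within the controls of each strain. Between 6 h and 1 d, Nr1d1 rose in both strains: by 1.45 in F344 (2.74-fold, SE 0.214, adjusted p = 0.00191) and by 1.35 in Cop (2.56-fold, SE 0.214, adjusted p = 0.00166). The Cop call was lost in a limma model of the 6 compared arrays alone (adjusted p = 0.054). In F344 it was the only member called, among 8 called probe sets in all, 0.0386% of those tested. The arrays of 8 members did not overlap between the times in F344, beside 16.8% of all probe sets. In Cop, Dbp also rose, from 7.65, 7.94 and 7.50 to 9.08, 9.44 and 8.84 (1.42, SE 0.202, 2.68-fold, adjusted p = 0.000658), and Bmal1 fell, from 7.00, 7.39 and 7.30 to 6.19, 6.09 and 6.16 (-1.08, SE 0.208, 2.12-fold, adjusted p = 0.0101). These 3 of 10 members stood beside 0.496% of all probe sets. The Cop control arrays at 6 h used here are also those of the strain comparison at 6 h and of the NMU comparison in Cop at 6 h. The differences in these comparisons are therefore not independent. The Bmal1 call was lost without Cop control replicate 2 at 6 h (0.114) or replicate 1 or 2 at 1 d (0.0579 and 0.056).

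No member was called for a difference between the strains in this 6 h to 1 d change, beside 0.0337% of all probe sets, and 4 had an unadjusted p under 0.05. The change of Bmal1 was -0.10 in F344, not called, and -1.08 in Cop, a difference of -0.98 (95% interval -1.59 to -0.38, adjusted p = 0.219). Dbp rose by 1.42 in Cop and differed by 0.71 in F344 without a call, a difference of 0.71 between the strains (0.12 to 1.29, adjusted p = 0.406).

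From 1 d to 30 d, no member was called in F344 controls, beside 22.2% of all probe sets, and none had an unadjusted p under 0.05. Their median absolute difference was 0.15, against 0.222 for all probe sets. Over the same interval 10 of 11 muscle, 4 of 7 adipocyte, 2 of 3 brown fat and 1 of 5 endothelial markers were called lower in these F344 glands. Called higher were 5 of 8 luminal epithelial, 5 of 6 basal epithelial and 1 of 9 T and NK markers. In Cop controls 4 members were called, beside 4.28%. Nr1d1 rose from 6.77, 7.03 and 6.48 to 8.14, 8.10 and 8.15 (1.37, SE 0.214, adjusted p = 0.000135). Npas2 rose from 4.94, 4.79 and 4.69 to 6.18, 6.32 and 7.04 (1.71, SE 0.374, adjusted p = 0.00655). Cry1 fell from 7.28, 7.66 and 7.52 to 6.44, 5.68 and 6.35 (-1.33, SE 0.192, adjusted p = 4.56e-05), and Per2 from 8.64, 8.94 and 8.93 to 7.97, 7.06 and 7.60 (-1.29, SE 0.255, adjusted p = 0.00229). The arrays of the 2 times did not overlap for these 4, nor for Per1 and Bmal1, 6 members beside 17.7% of all probe sets. The Npas2 call was lost without replicate 3 at 30 d (1.44, adjusted p = 0.0504). The second, dimmer Per2 probe set gave 0.25 over this interval (adjusted p = 0.532), the opposite sign, and over the 36 arrays it correlated at -0.17 with the first.

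**Figure D2:**
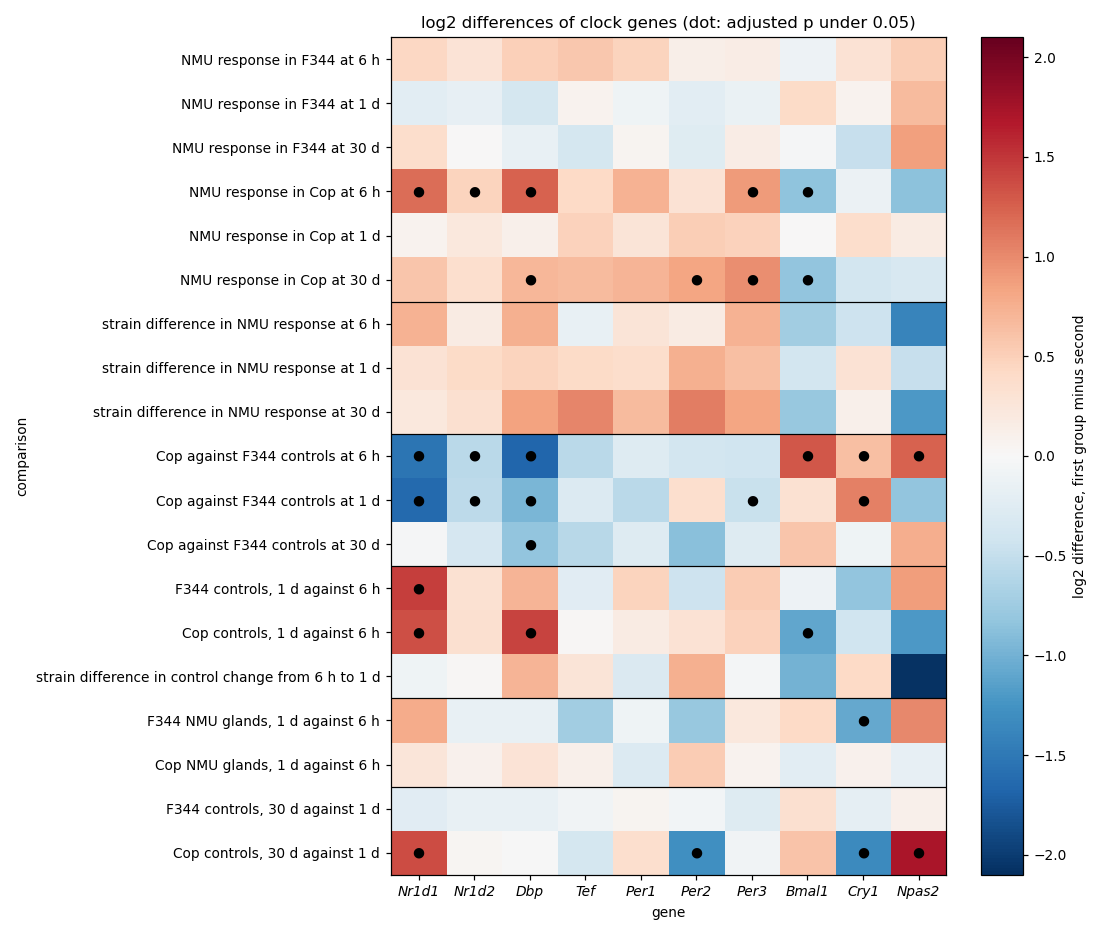
Log2 difference of each clock gene (columns) in each of the 19 comparisons (rows), coloured from blue (lower in the first-named group) to red (higher), with a dot where limma's adjusted p was under 0.05. Of the 6 NMU comparisons, those in Cop at 6 h and at 30 d hold dots, 5 and 4 of them, and those in F344 hold none.

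The NMU comparison asks what the carcinogen did to the clock genes in each strain. In Cop at 6 h, Nr1d1, Nr1d2, Dbp and Per3 rose and Bmal1 fell. These 5 of 10 members stood beside 6.57% of all probe sets called, and 7 members did not overlap between NMU and control arrays, beside 29.7%. The members' median difference was 0.45, and that of all probe sets -0.00. The comparison shares its Cop control arrays with the strain comparison at 6 h, in which the same 3 genes Nr1d1, Nr1d2 and Dbp were lower and Bmal1 higher, so the 2 sets of differences are not independent.

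Nr1d1 read 5.25, 6.07 and 4.90 in Cop controls at 6 h and 6.92, 6.54 and 6.27 in Cop NMU glands. All NMU arrays were above all controls, a rise of 1.17 (SE 0.214, 2.25-fold, adjusted p = 0.000709). Nr1d2 rose less, from 8.92, 9.08 and 8.61 to 9.36, 9.42 and 9.26 (0.47, SE 0.128, 1.39-fold, adjusted p = 0.0203). Its call was lost without Cop control replicate 1 (0.0537) or 3 (0.155), or Cop NMU replicate 1 (0.0547) or 2 (0.0986), and its other probe sets gave 0.40 and 0.69 without a call (adjusted p = 0.145 and 0.0757).

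Dbp rose the most of the members, from 7.65, 7.94 and 7.50 to 8.87, 8.90 and 9.04 (1.24, SE 0.202, 2.36-fold, adjusted p = 0.000191). The 3 NMU arrays were close together and almost 1 log2 unit above the highest control. Tef read 7.71, 7.83 and 7.41 in controls and 8.14, 8.34 and 7.73 after NMU, overlapping values with no call. Both other Tef probe sets were called higher, by 0.81 and 0.85 (adjusted p = 0.0155 and 0.0146).

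Among the period genes, Per3 rose from 6.70, 7.30 and 6.87 to 7.67, 7.85 and 8.04 (0.90, SE 0.162, 1.86-fold, adjusted p = 0.000613). The second, dimmer Per3 probe set gave 0.37 without a call (adjusted p = 0.198). Per1 read 7.25, 7.72 and 7.21 in controls and 7.84, 8.18 and 8.36 after NMU, without overlap, but the difference of 0.73 was not called (adjusted p = 0.0638). It was called without Cop control replicate 2 (0.0461) or Cop NMU replicate 1 (0.0481). Per2 read 8.36, 8.87 and 8.36 in controls and 8.59, 8.99 and 8.91 after NMU, overlapping values with no call.

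Bmal1 fell from 7.00, 7.39 and 7.30 to 6.56, 6.31 and 6.27 (-0.85, SE 0.208, 1.80-fold, adjusted p = 0.0108). No array overlapped, and the NMU glands lay between the Cop and F344 controls of that time. The call was lost without Cop control replicate 2 (0.0549) or Cop NMU replicate 2 (0.0537) or 3 (0.0565). Npas2 read 6.09, 6.21 and 5.72 in controls and 5.68, 5.05 and 4.73 after NMU, without overlap and with no call. Cry1 overlapped between the groups, at 8.09, 7.80 and 7.81 against 7.72, 7.83 and 7.75.

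T and NK cell markers fell and fibroblast markers rose in the same glands. The T and NK score lay between 0.51 and 1.00 in Cop controls at 6 h and at -0.01, -1.33 and -1.31 in Cop NMU replicates 1 to 3, and 4 of 9 markers were called lower. The fibroblast score lay between -0.47 and -0.22 in controls and between 0.40 and 0.52 after NMU, with 5 of 7 markers called higher. With the T and NK score as a covariate, Nr1d1 (1.12, adjusted p = 0.0145), Dbp (0.89, adjusted p = 0.022) and Per3 (0.92, adjusted p = 0.00818) stayed called, Nr1d2 (0.49, adjusted p = 0.0924) and Bmal1 (-0.46, adjusted p = 0.326) did not. The muscle and macrophage scores also lay wholly above those of the controls. The adipocyte, brown fat, basal epithelial and B cell scores lay wholly below. Every member call of this comparison held with the muscle score as a covariate. The part of fibroblast markers and of the other lists in these results was not tested.

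**Figure D3:**
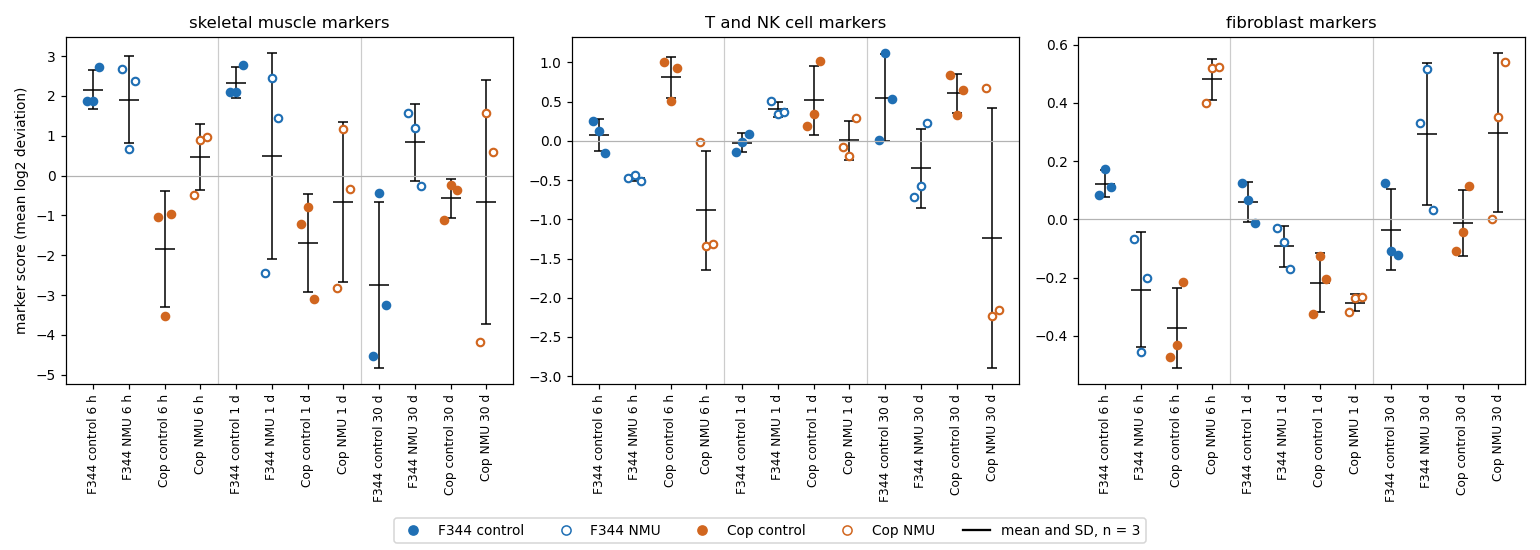
Score of skeletal muscle, T and NK cell, and fibroblast markers on each array (y axis, mean log2 deviation from each gene's mean over 36 arrays, a separate scale per panel) in the 12 groups, with the mean and SD of 3 arrays. Cop NMU replicates 2 and 3 at 30 d stand lowest in the T and NK panel, at -2.23 and -2.16, and the 3 Cop NMU glands at 6 h lie between 0.40 and 0.52 in the fibroblast panel.

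At 1 d after NMU, no member was called in Cop, beside 0.761% of all probe sets, and 2 had an unadjusted p under 0.05. The arrays of 3 members (Tef, Per2 and Per3) did not overlap, beside 14.6%. Per3 read 7.36, 7.51 and 7.46 in controls and 7.84, 8.12 and 7.81 after NMU, without overlap, a difference of 0.48 (95% interval 0.15 to 0.81, adjusted p = 0.191). Per2 also did not overlap, at 8.64, 8.94 and 8.93 against 9.46, 9.38 and 9.24 (0.52, interval 0.00 to 1.05, adjusted p = 0.495). The second probe sets of Per3 (means 4.79 and 4.86) and Per2 (6.72 and 6.87) overlapped between controls and NMU glands. Nr1d1 differed by 0.07 (interval -0.37 to 0.51) and Bmal1 by 0.01 (interval -0.41 to 0.44).

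At 30 d in Cop, Per3, Per2 and Dbp rose and Bmal1 fell, 4 of 10 members beside 9.90% of all probe sets. Arrays of 5 members did not overlap, beside 17.3%, and the members' median difference was 0.62, against -0.01 for all probe sets. Per3 rose from 7.32, 7.11 and 7.69 to 8.46, 8.24 and 8.38 (0.98, SE 0.162, 1.98-fold, adjusted p = 0.000678), with all NMU arrays above all controls, while its second probe set gave 0.32 without a call (adjusted p = 0.21). Bmal1 fell from 6.77, 6.85 and 6.63 to 6.49, 5.84 and 5.44 (-0.82, SE 0.208, 1.77-fold, adjusted p = 0.0136), and the call was lost without NMU replicate 3 (0.163). The Cop controls at 30 d had the lowest group mean of Per2 (7.55) and the second highest of Bmal1 (6.75). Their arrays also enter the strain comparison at 30 d and the Cop control change from 1 d to 30 d. The differences in these comparisons are therefore not independent.

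Dbp rose from 9.08, 8.79 and 9.44 to 9.30, 10.16 and 9.92 (0.69, SE 0.202, 1.61-fold, adjusted p = 0.029), and Per2 from 7.97, 7.06 and 7.60 to 7.74, 8.39 and 8.97 (0.82, SE 0.255, 1.77-fold, adjusted p = 0.0382). Both overlapped between the groups, with NMU replicate 1 within the range of the controls. The Dbp call was lost without control replicate 1 (0.0646) or 2 (0.124) or NMU replicate 2 (0.153) or 3 (0.162). The Per2 call was lost without control replicate 2 (0.175) or 3 (0.0789) or NMU replicate 2 (0.0867) or 3 (0.325), and the second Per2 probe set gave -0.12 (adjusted p = 0.754).

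Nr1d1 read 8.14, 8.10 and 8.15 in Cop controls at 30 d and 8.62, 8.59 and 8.91 in NMU glands, without overlap and without a call. Per1 read 7.93, 7.91 and 7.92 in controls and 7.85, 8.87 and 9.19 after NMU (0.72, adjusted p = 0.0543), and was called without NMU replicate 1 (1.11, adjusted p = 0.000633). Cry1 was called lower without control replicate 2 (-0.62, adjusted p = 0.0457).

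NMU replicate 1 at 30 d stood apart from replicates 2 and 3 in cell markers as well. Its T and NK score was 0.67, within the 0.33 to 0.84 of the controls, while those of replicates 2 and 3 were -2.23 and -2.16. Its B cell score was 1.30, against -3.05 and -2.93. Over the list, 5 of 9 T and NK markers were called lower at 30 d, and 4 of 5 endothelial markers higher. Also called lower were 2 of 3 B cell, 2 of 8 luminal epithelial and 2 of 6 basal epithelial markers. Also called higher were 3 of 7 fibroblast, 2 of 7 adipocyte and 1 of 6 macrophage markers. The part of the endothelial and these further lists in the member changes was not tested. With the T and NK score as a covariate Per3 was called (1.01, adjusted p = 0.0115) and Dbp (0.31, adjusted p = 0.519), Bmal1 (-0.40, adjusted p = 0.388) and Per2 were not. In a limma model of the 6 compared arrays alone, which has fewer arrays to estimate the spread, neither a member nor any other probe set was called (lowest adjusted p of a member 0.261, Per3).

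In F344 no member was called after NMU at any time. The share of all probe sets called was 0.622% at 6 h, 0.983% at 1 d and 3.29% at 30 d, and 4, 0 and 2 members had an unadjusted p under 0.05. At 6 h, the arrays of 6 members did not overlap, all higher after NMU, beside 15.4% of all probe sets higher without overlap. These were Nr1d2, Dbp, Tef, Per1, Cry1 and Npas2. Dbp read 9.58, 9.17 and 9.35 in controls and 9.72, 9.74 and 10.12 after NMU (0.49, 95% interval 0.08 to 0.91, adjusted p = 0.285). Tef read 8.61, 8.52 and 7.50 and then 8.85, 8.82 and 8.66 (0.57, interval 0.08 to 1.06, adjusted p = 0.306). Nr1d1 read 7.27, 6.81 and 6.73 and then 7.42, 7.04 and 7.67, overlapping (0.44, interval 0.00 to 0.88, adjusted p = 0.369).

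At 1 d in F344, Nr1d1 differed by -0.23 (interval -0.67 to 0.21), Dbp by -0.37 (interval -0.78 to 0.04) and Bmal1 by 0.40 (interval -0.02 to 0.83). At 30 d, Npas2 read 5.86, 6.07 and 5.34 in controls and 6.44, 6.92 and 6.49 after NMU, without overlap (0.86, interval 0.10 to 1.62, adjusted p = 0.205). Cry1 read 6.03, 6.57 and 6.15 and then 5.72, 5.45 and 6.11 (-0.49, interval -0.88 to -0.09, adjusted p = 0.155).

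Calls in Cop and none in F344 do not show that the strains responded differently, so the difference of the responses (Cop minus F344) was tested itself. No member was called at 6 h, 1 d or 30 d, beside 0.877%, 0.207% and 0% of all probe sets. By limma, 5, 3 and 6 members had an unadjusted p under 0.05. The shares just given are at the adjusted threshold, so these counts cannot be set against them. At 6 h the difference was 0.73 for Nr1d1 (95% interval 0.11 to 1.35, adjusted p = 0.351), 0.75 for Dbp (0.16 to 1.33, adjusted p = 0.293), 0.73 for Per3 (0.26 to 1.20, adjusted p = 0.159) and -0.74 for Bmal1 (-1.34 to -0.13, adjusted p = 0.327). At 30 d it was 1.08 for Per2 (0.34 to 1.82), 1.03 for Tef (0.33 to 1.72), 0.84 for Dbp (0.26 to 1.42) and 0.83 for Per3 (0.36 to 1.29), each with an adjusted p of 0.999. These intervals are per gene and not adjusted. Npas2 and Bmal1 differed the other way at 30 d, by -1.20 and -0.79, also without a call. The second Per2 probe set moved oppositely to the first at 30 d. Its means went from 6.97 to 6.86 with NMU in Cop and from 6.85 to 6.93 in F344.

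Within the NMU glands, the step from 6 h to 1 d held 1 call. Cry1 fell in F344 from 7.47, 7.80 and 7.44 to 6.54, 6.48 and 6.46 (-1.08, SE 0.192, 2.11-fold, adjusted p = 0.000968), 1 of 10 members beside 1.74% of all probe sets. Its arrays did not overlap. In F344 controls, Cry1 went from 7.16, 7.30 and 7.34 to 6.34, 6.32 and 6.62 over the same step, a difference of -0.84 with no call (adjusted p = 0.136). In Cop NMU glands no member was called, beside 7.09%, and 1 had an unadjusted p under 0.05. Nr1d1 there read 6.92, 6.54 and 6.27 at 6 h and 6.62, 6.76 and 7.11 at 1 d.

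Other genes of the clock were read from lists chosen with the members. Of 12 further loop genes, 10 were measured and 8 tested. After NMU in Cop at 30 d, Cry2, the second cryptochrome gene, rose from 7.90, 6.97 and 7.56 to 7.92, 8.39 and 8.31 (0.73, adjusted p = 0.00608). Bhlhe41, a repressor that competes for E-boxes, fell from 9.80, 9.75 and 10.65 to 9.38, 9.32 and 8.48 (2.01-fold, adjusted p = 0.0107). The other 6 were not called there, where 9.90% of all probe sets were called. None of the 8 was called after NMU in Cop at 6 h, beside 6.57% of all probe sets. Bhlhe40, the relative of Bhlhe41, was lower in Cop than in F344 controls at 6 h (-0.74, adjusted p = 0.0377) and 1 d (-1.04, adjusted p = 0.00505), where every Cop array was below every F344 array. Nfil3, which represses at the D-box, was higher in Cop at 6 h (0.56, adjusted p = 0.0457). Of the 8 genes, 2 were called between strains at 6 h and 1 at 1 d, beside 19.0% and 15.2% of all probe sets. Hlf, the third PAR bZIP gene, was lower in Cop controls at 30 d (-0.97, adjusted p = 0.012), and fell in Cop controls from 1 d to 30 d (-1.07, adjusted p = 0.0044), as did Nfil3 (-0.80, adjusted p = 0.0153). Of all probe sets, 2.83% were called between the strains at 30 d and 4.28% in Cop controls from 1 d to 30 d. In F344 controls over that interval, where 22.2% of all probe sets were called, 4 of the 8 were: Bhlhe41 and Timeless rose (both 0.71, adjusted p = 0.035 and 0.0168), and Bhlhe40 (-1.23, adjusted p = 0.000644) and Nfil3 (-0.76, adjusted p = 0.0054) fell. In Cop NMU glands from 6 h to 1 d, beside 7.09% of all probe sets, Bhlhe41 rose (0.84, adjusted p = 0.0322) and Timeless fell (-0.74, adjusted p = 0.033).

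Of 11 genes for kinases and ubiquitin enzymes that set the stability of clock proteins, 9 were tested. Usp2, a deubiquitinase whose gene is itself clock-driven, had the largest difference of this list, -2.02 in Cop against F344 controls at 6 h (4.05-fold lower, adjusted p = 2.2e-05). It also fell in F344 NMU glands from 6 h to 1 d (-1.91, adjusted p = 0.000201), where 1.74% of all probe sets were called. The kinase gene Csnk1d was higher in Cop controls at 6 h (0.52, adjusted p = 0.000742), and so was Nono, which encodes a PER-binding cofactor (0.38, adjusted p = 0.00334). Nono was also higher in Cop at 1 d (0.29, adjusted p = 0.0221). Of the 9 genes, 3 were called between strains at 6 h and 1 at 1 d, beside 19.0% and 15.2% of all probe sets. In F344 controls from 1 d to 30 d, beside 22.2% of all probe sets, Nono (0.52, adjusted p = 6.57e-05) and Csnk1d (0.30, adjusted p = 0.0352) rose and Usp2 fell (-1.31, adjusted p = 0.00174). After NMU, Csnk2b was the one gene of this list called, lower at 30 d in F344 (-0.36, adjusted p = 0.0324) and in Cop (-0.42, adjusted p = 0.00686). That is 1 of 9 genes in each strain, beside 3.29% and 9.90% of all probe sets, so the Cop count is near that share.

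The 4 output genes Wee1, Nampt, Alas1 and Por all fell in Cop controls from 1 d to 30 d, the interval in which Per2 and Cry1 fell and in which 4.28% of all probe sets were called. Wee1, a kinase that holds cells before mitosis, fell by 0.82 on the log2 scale (adjusted p = 0.0417), Nampt by 0.62 (adjusted p = 0.041), Alas1 by 0.92 (adjusted p = 0.000711) and Por by 0.45 (adjusted p = 0.0389). In F344 controls 2 of the 4 fell over this interval, beside 22.2% of all probe sets called: Alas1 2.83-fold (adjusted p = 1.07e-07) and Por by 0.56 on the log2 scale (adjusted p = 0.00179). After NMU in Cop at 6 h, Alas1 fell by 0.68 (adjusted p = 0.0101), from 8.75, 8.62 and 8.69 to 8.06, 7.98 and 7.99, and it rose in Cop NMU glands from 6 h to 1 d (0.71, adjusted p = 0.00656). Alas1 was the 1 gene of 4 called in each, beside 6.57% and 7.09% of all probe sets. Between the strains, Por was lower in Cop controls at 6 h (-0.47, adjusted p = 0.00999), Alas1 at 1 d (-0.76, adjusted p = 0.00186) and Nampt at 30 d (-0.75, adjusted p = 0.0132). Each was the 1 gene of 4 called at its time, beside 19.0%, 15.2% and 2.83% of all probe sets.

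Per1 carries a glucocorticoid response element besides its E-boxes, so glucocorticoid-induced genes are given beside it. Of 7 tested, 2 rose after NMU in Cop at 6 h, where 6.57% of all probe sets were called. Errfi1 went from 8.63, 8.87 and 8.74 to 9.84, 10.19 and 10.37 (1.38, adjusted p = 0.014), and Cebpd from 8.37, 8.39 and 8.44 to 9.75, 8.89 and 9.04 (0.82, adjusted p = 0.0141). Tsc22d3, a standard glucocorticoid target, differed by 0.22 there (adjusted p = 0.794) and Fkbp5, another, by -0.26 (adjusted p = 0.87). At 30 d in Cop, Klf9 rose by 0.88 (adjusted p = 0.00912) and the other 6 were not called, beside 9.90% of all probe sets. In Cop NMU glands from 6 h to 1 d, Sgk1 (-1.06, adjusted p = 0.00148), Cebpd (-0.76, adjusted p = 0.0239) and Errfi1 (-1.18, adjusted p = 0.0358) fell, 3 of 7 beside 7.09% of all probe sets. Sgk1 was higher in Cop than in F344 controls at 6 h (0.86, adjusted p = 0.00482), and Klf9 was lower in Cop at 1 d (-1.01, adjusted p = 0.00124). Each was the 1 gene of 7 called at its time, beside 19.0% and 15.2% of all probe sets. From 1 d to 30 d, Sgk1 rose in F344 controls (0.61, adjusted p = 0.0354) and Cebpd in Cop controls (0.82, adjusted p = 0.0193). That is 1 of 7 in each strain, beside 22.2% and 4.28% of all probe sets.

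Across single arrays, several pairs of members ran together and others ran opposite. Over the 36 arrays, Dbp correlated with Nr1d2 at 0.85 and with Nr1d1 at 0.81, and Nr1d1 with Nr1d2 at 0.71. In the opposite direction, Nr1d1 correlated with Cry1 at -0.88, Dbp with Bmal1 at -0.82, Per2 with Npas2 at -0.77 and Nr1d2 with Bmal1 at -0.69. The pairs did not form a pair of clean sets: Cry1 correlated with Npas2 at -0.58 and with Per2 at 0.66, and Nr1d1 with Bmal1 at -0.46, with Npas2 at 0.47 and with Per2 at -0.43. These are descriptions, since the arrays share strain, treatment and time. With group means taken out, Dbp and Bmal1 correlated at -0.63 and Per2 and Npas2 at -0.55, while Nr1d1 and Cry1 correlated at -0.24 and Nr1d2 and Bmal1 at -0.09.

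**Figure D4:**
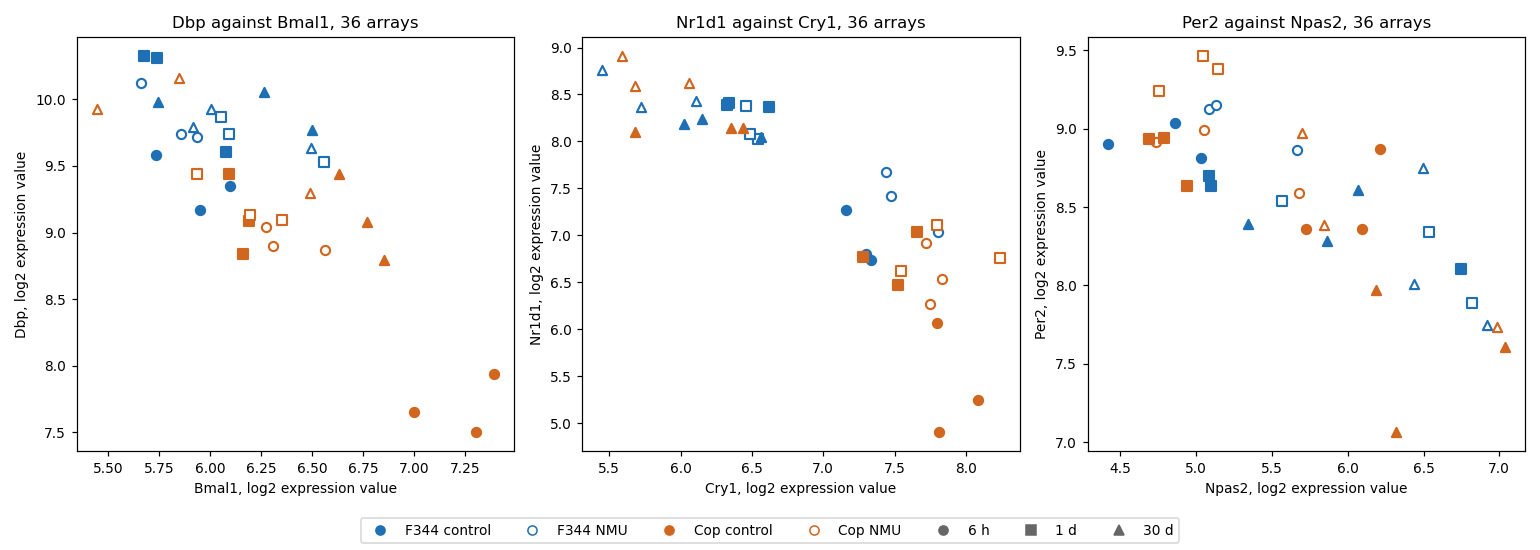
Log2 expression values of Dbp against Bmal1, Nr1d1 against Cry1 and Per2 against Npas2, with 1 point per array (36 in each panel), colour for strain, filled points for controls and shapes for the time after treatment. The points run downward in each panel (Pearson r = -0.82, -0.88 and -0.77), and the 3 Cop controls at 6 h lie at the low-Dbp, high-Bmal1 end.

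Among 11494 other genes, those with the pattern most like each member were found by Pearson's r over the 36 arrays. The closest to Per2 was Wee1 (r = 0.84), followed by Chmp3 and Hebp1 (both 0.71). Closest to Cry1 were Rrs1 (0.84), Pds5b (0.84) and Fbxw11 (0.83), the last of which encodes a ubiquitin ligase subunit from the list of turnover genes. Closest to Per1 were Klf9 (0.83), Fzd4 (0.80) and Atosb (0.76). Nr1d1 was most like Pla2g6 (0.80), Tef like Phlda3 (0.78), Npas2 like Kcnh1 (0.78), Bmal1 like Pde4b (0.77), Dbp like Abhd16a (0.76), Nr1d2 like Eef2k (0.76) and Per3 like Dlgap4 (0.75). Cell marker scores also ran with members within groups. The T and NK score correlated there with Bmal1 at 0.53, with Per1 at -0.51 and with Dbp at -0.47. The adipocyte score correlated with Per2 at 0.68, with Dbp at 0.58, with Bmal1 at -0.55 and with Npas2 at -0.54, so it ran with both opposed pairs above, and its part in them was not tested. The T and NK score spread most in Cop NMU glands at 30 d (0.67, -2.23 and -2.16, SD 1.65). The adipocyte score spread most in Cop controls (SD 0.49) and Cop NMU glands (SD 0.46) at 30 d. These groups weigh heavily in the correlations within groups, which were not computed without them.

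Where a member had several probe sets, they did not always rank the arrays alike. The 2 further Nr1d2 probe sets correlated with the one used at 0.87 and 0.64, and both were called lower in Cop controls at 6 h (-0.54 and -0.89). The 2 further Tef probe sets correlated at 0.76 and 0.72, and the second Per3 probe set at 0.46.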

How the data were processed

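Each sample is 1 array. RNA came from a Qiagen column kit and was labelled with biotin, per the labels' protocols. The submitters' processing notes name GCOS, and the summarization of probe signals is not stated in the sources used here. The authors deposited log2 expression values per probe set. They were used without further normalization. Of 31099 probe sets, 20832 had 1 symbol, 436 several and 9831 none, and the annotation lacked the Entrez identifier of 68. Besides 57 control probe sets, 10293 were left out: a probe set was tested if above the 40th percentile of its array on at least 3 arrays, leaving 20749.

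A model of 12 group means over the 36 arrays was fitted with limma 3.58.1 in R 4.3.3 (trend and robust moderation, two-sided, Benjamini-Hochberg within each of 19 comparisons, threshold 0.05). A member was read by its probe set of highest mean. In data simulated for the Cop NMU comparison at 6 h over 20749 probe sets, 86% of changes of log2 1 and 97% of changes of log2 2 were recovered, and 5.67% of calls were false. The simulated noise was independent between probe sets and equal in spread over the groups, and 100 probe sets were changed at each size. The real arrays also differ in cell mixture and in spread between groups, so these shares need not hold for them. List scores are mean deviations of marker genes. Members and list genes are named wherever called, with up to 3 most alike genes per member. The members and lists were chosen with earlier results of these data known.

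Arrays with the same replicate number, taken from the labels, deviated together (correlation over 0.1 in each of the 3 pairs) in Cop after NMU at 6 h (0.114, 0.142 and 0.435) and 1 d (0.202, 0.424 and 0.315), and in Cop NMU glands between those times (0.165, 0.255 and 0.157). Alternatives were quantile normalization, no filter, a filter at the 60th percentile, plain moderation, the replicate block, the compared arrays alone, the muscle score as a covariate, the members' other probe sets and leaving out each array. The T and NK score as a covariate, and averaging the closest replicate pair, were chosen after seeing the data. The number of arrays limits the precision. Promoter sequences are from RefSeq (GRCr8). The array annotation names no build.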

Additional observations from a re-analysis of the deposited data

Results flagged for a closer look

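For Npas2 after NMU at 6 h, every Cop NMU array lay below every Cop control while every F344 NMU array lay above every F344 control. The difference of the responses was -1.38 (95% interval -2.46 to -0.30), not called by limma (adjusted p = 0.3).

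For Per3 at 1 d, every Cop NMU array lay above the Cop controls and every F344 NMU array below the F344 controls. The difference of the responses was 0.63 (0.16 to 1.10), not called (adjusted p = 0.432). On the second, dimmer Per3 probe set the NMU and control arrays overlapped in both strains. Its means went from 4.79 to 4.86 in Cop and from 4.90 to 4.90 in F344.

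For Npas2 in controls, every array at 1 d lay below those at 6 h in Cop and above them in F344. The difference between the strains was -2.08 (SE 0.529), not called (adjusted p = 0.166). F344 control replicate 3 at 1 d read 6.75, against 5.08 and 5.10 for the other two.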

How the results depend on the processing

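Of 30 member calls, 17 held in every alternative read on the same probe set and 19 whichever array was left out. Of the 8 calls of members with other probe sets, 1 (Nr1d2 between the strains at 6 h) was called on all of them, which leaves 14 calls that held throughout. Apart from that Nr1d2 call, these are of Nr1d1, Dbp, Bmal1 and Cry1. Those members have a single probe set each, so the probe set check could not be made for them. Outside the second Per2 probe set (-0.12 after NMU in Cop at 30 d and 0.25 in Cop controls from 1 d to 30 d), no called member changed sign. Changes in the number of called members included the following, besides the lost calls given above. After NMU in Cop at 30 d it was 4, against 0 in the compared arrays alone, 1 with the T and NK score and 1 to 5 with 1 array left out. It was 2 without NMU replicate 2 and 1 without NMU replicate 3. After NMU in Cop at 6 h it was 5, against 3 with the T and NK score and 3 to 5 with 1 array left out, the lowest without NMU replicate 2. In Cop against F344 controls at 30 d it was 1, against 0 in the compared arrays alone, 2 with the T and NK score and 0 to 1 with 1 array left out. It was 0 without Cop control replicate 2 or F344 control replicate 1 or 3. In F344 NMU glands from 6 h to 1 d it was 1, against 2 by quantile normalization, 2 with the 60th percentile filter, 2 in the compared arrays alone and 1 to 2 with 1 array left out. In Cop NMU glands over that step it was 0, against 1 (Per2) in the compared arrays alone. With 1 array left out, the count ranged over 4 to 7 in Cop against F344 controls at 6 h, 2 to 3 in Cop controls from 6 h to 1 d, and 3 to 4 in Cop controls from 1 d to 30 d. In Cop against F344 controls at 1 d it was 5, against 4 whichever array was left out. With the replicate block, Per2 in Cop NMU at 30 d lost its call (0.82, adjusted p = 0.066), and no other call changed. Same-numbered pairs deviated together in 3 of 15 comparisons of groups. Values in bulk glands and 3 arrays per group limit all counts. The causes of these changes were not tested.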
